A study of Homo sapiens with 16 samples.

Results

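HIF-2α binding in T47D breast carcinoma cells was compared, site by site, with HIF-2α binding in 3 other cancer cell lines. A T47D site was a merged region in which peaks of both T47D HIF-2α libraries overlapped by at least 1 bp, which gave 180 sites. A site was called private when no HIF-2α peak of any library of A549 (lung), HCT116 (colorectal) or PC3 (prostate) overlapped it, and shared when at least 1 did. By this rule 92 of the 180 T47D sites were private (51.1%, Wilson 95% interval 43.9 to 58.3) and 88 were shared. The 4 lines together had 1133 HIF-2α sites after merging.

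The series holds peak lists from ChIP-seq, which recovers DNA with an antibody against a DNA-binding protein and lists the stretches of genome where that DNA piles up. There were 2 libraries for HIF-1α and 2 for HIF-2α in each of the 4 lines, 16 in all. Cells of every group had been held at 0.5% oxygen for 16 hours, and the labels name no genetic change. Among the 4 lines, T47D alone was grown in DMEM, so that the line and its medium cannot be told apart. Nothing in the labels says that the 2 libraries of a group came from separate cultures, and the spread between them may be technical.

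HIF-2α, encoded by EPAS1, is an oxygen-regulated transcription factor subunit. With oxygen present it is hydroxylated by prolyl hydroxylases, bound by the VHL protein and degraded. In hypoxia it accumulates, pairs with HIF-1β and binds the core sequence RCGTG, which stands for ACGTG or GCGTG. HIF-1α binds the same core and is best known for the promoters of glycolytic genes, whereas HIF-2α is known for binding away from promoters. T47D is a luminal line that expresses the oestrogen receptor, and FOXA1, GATA3 and that receptor are known to occupy enhancers in luminal breast cells.

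Peak lists contain no expression values, so the identity of the lines was not checked against their markers. Sequencing depth is unknown. The T47D HIF-2α lists held 423 and 424 peaks, against 275 to 1382 in the other 6 HIF-2α lists. The T47D peaks were the narrowest by median width, at 443 and 685 bp against 689 to 1315 bp. The part of depth and peak width in the results was not tested.

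Sequences at the centres of the best-ranked sites are given before the values, to show the core and its surroundings. Each is the plus strand of the central 200 bp in GRCh37, and capitals mark the core on either strand. The private sites shown first were among the 10 best-ranked private sites. The site near DHX35 is included because it had 0 copies of the core in this window.
KRT19 site, chr17:39692617-39692816: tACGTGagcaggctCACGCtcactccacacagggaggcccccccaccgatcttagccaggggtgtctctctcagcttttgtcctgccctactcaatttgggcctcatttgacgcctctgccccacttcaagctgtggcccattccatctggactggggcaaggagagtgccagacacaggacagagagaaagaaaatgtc
STMND1 site, chr6:16986260-16986459: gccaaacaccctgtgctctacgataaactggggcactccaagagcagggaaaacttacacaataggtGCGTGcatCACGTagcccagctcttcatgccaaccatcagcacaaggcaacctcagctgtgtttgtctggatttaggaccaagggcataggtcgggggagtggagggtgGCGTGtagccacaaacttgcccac
PARD3 site, chr10:35220308-35220507: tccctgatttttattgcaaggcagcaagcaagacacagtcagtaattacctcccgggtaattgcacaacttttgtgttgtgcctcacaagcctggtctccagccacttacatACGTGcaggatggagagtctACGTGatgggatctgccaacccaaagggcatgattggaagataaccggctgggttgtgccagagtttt
DHX35 site, chr20:37589091-37589290: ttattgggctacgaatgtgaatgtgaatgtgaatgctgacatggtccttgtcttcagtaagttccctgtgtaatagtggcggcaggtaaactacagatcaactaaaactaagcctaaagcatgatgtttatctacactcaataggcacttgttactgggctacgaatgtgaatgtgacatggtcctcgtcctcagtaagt
Shared sites of like rank are given for comparison. Those near SNAPC1 and ALDOA had a HIF-2α peak in all 6 libraries of the other lines, and that near WT1 had one in PC3 replicate 2.
SNAPC1 site, chr14:62217840-62218039: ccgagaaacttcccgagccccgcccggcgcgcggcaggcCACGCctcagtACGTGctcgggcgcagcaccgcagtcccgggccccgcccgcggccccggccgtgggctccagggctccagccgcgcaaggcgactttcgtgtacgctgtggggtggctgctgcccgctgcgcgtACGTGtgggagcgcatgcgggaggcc
ALDOA site, chr16:30076746-30076945: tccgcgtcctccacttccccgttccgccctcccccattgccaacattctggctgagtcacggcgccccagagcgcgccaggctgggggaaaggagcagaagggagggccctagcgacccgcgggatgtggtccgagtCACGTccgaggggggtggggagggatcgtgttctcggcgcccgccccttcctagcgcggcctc
WT1 site, chr11:32442904-32443103: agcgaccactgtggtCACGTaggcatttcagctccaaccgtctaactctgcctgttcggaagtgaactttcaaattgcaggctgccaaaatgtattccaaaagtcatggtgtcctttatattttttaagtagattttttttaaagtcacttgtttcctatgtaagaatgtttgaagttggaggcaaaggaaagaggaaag
The KRT19 site had 2 copies of the core, the STMND1 site 3, the PARD3 site 2, the SNAPC1 site 3, and the ALDOA and WT1 sites 1 each.

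The 88 shared sites had a HIF-2α peak in 1 other line in 23 cases, in 2 lines in 17 and in all 3 lines in 48, and 26 of them had one in each of the 6 other libraries. A peak in A549 was present at 72 T47D sites, in PC3 at 69 and in HCT116 at 60. The PC3 count rested on replicate 2, which overlapped all 69, while the shorter list of replicate 1 overlapped 36. A549 was the only other line at 10 sites, PC3 at 9 and HCT116 at 4. All 92 private sites lay more than 1000 bp from any HIF-2α peak of another line, with a median gap of 119320 bp and a range of 1994 to 3966344 bp.

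At the edge of the rule, the private site nearest to another line's peak was 1994 bp away and 50237 bp from the TMEM63B start. The next 4, near SMIM38, EDN1, RARA and S100A4, had gaps of 5554, 6547, 6869 and 8016 bp. Among shared sites, the smallest overlaps were 344 bp at a site of chromosome 21 and 437 bp near RAI1. Next were 508 bp near ZNF175, 605 bp near F8A2 and 616 bp near TF. These sites were short and covered over their whole width, except the RAI1 site, which was 921 bp wide. The RAI1 site was shared through 1 peak, in HCT116 replicate 2 with a score of 57.1, while its T47D scores were 165 and 252.

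Private sites made up a like share of T47D and of A549, where 395 of 772 sites had no peak in another line (51.2%). It was 33.1% in HCT116 (116 of 350) and 26.1% in PC3 (40 of 153), and these shares over sites are a description only, since sites of 1 line share their libraries. Counted over all peaks of a library, with or without support from the other replicate, 73.9% and 68.2% of the T47D peaks were private. The other 6 libraries ranged from 55.9 to 70.9%, so the groups overlapped. The T47D mean (71.0 ± 4.08%, SD, n = 2) was 7.85 percentage points above that of the others (63.2 ± 6.21%, n = 6), which did not pass (exact permutation test over 28 splits, two-sided, p = 0.214; adjusted p = 0.241 over 9 tests). Without PC3 the difference was -1.52 points.

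Private T47D sites lay farther from start sites than shared ones. From its centre to the closest protein-coding start, a private site had a median of 36010.5 bp (quartiles 9636 and 94761 bp) and a shared site 2589 bp (quartiles 197 and 20900 bp). Within 1000 bp of a start lay 5 of 92 private sites (5.43%, interval 2.34 to 12.1) and 35 of 88 shared sites (39.8%, 30.2 to 50.2). More than 10000 bp away were 68 private and 33 shared sites, and more than 100000 bp away 21 and 9. The distance shortened with the number of other lines, from a median of 11436 bp at sites shared with 1 other line to 2512 bp with 2 and 515.5 bp with 3. Gene bodies did not separate the classes. The centre was intronic at 26 private and 25 shared sites and outside protein-coding genes at 64 and 60.

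The same contrast was seen in each T47D library. In replicate 1 the median distance was 50433 bp for private peaks and 1694 bp for shared peaks, and in replicate 2 it was 43442 bp and 1767 bp. On the log10 scale the gap was 1.43 ± 0.0588 (SD, n = 2). In the other 6 libraries, each set against the lines it did not belong to, the gap was 0.271 ± 0.190 (n = 6). PC3 replicate 2, at -0.0296, was the library of 8 in which private peaks were not the farther ones. Over all 8 libraries the mean gap was 0.561 (two-sided exact sign-flip permutation test, p = 0.0156; adjusted p = 0.0352). This call was lost under 14 of 21 alternatives, among them distal peaks only (0.186) and 6 of the 8 omissions of a single library, and it held without A549 replicate 2 and without PC3 replicate 2. The T47D gap exceeded that of the other lines by 1.16 with no overlap of values, and the exact permutation p of 0.0357 was the smallest that 28 splits can give, but the adjusted p was 0.0643. With cell lines as units, 1 against 3, the smallest possible exact p is 0.25, and that was the value obtained.

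**Figure D1:**
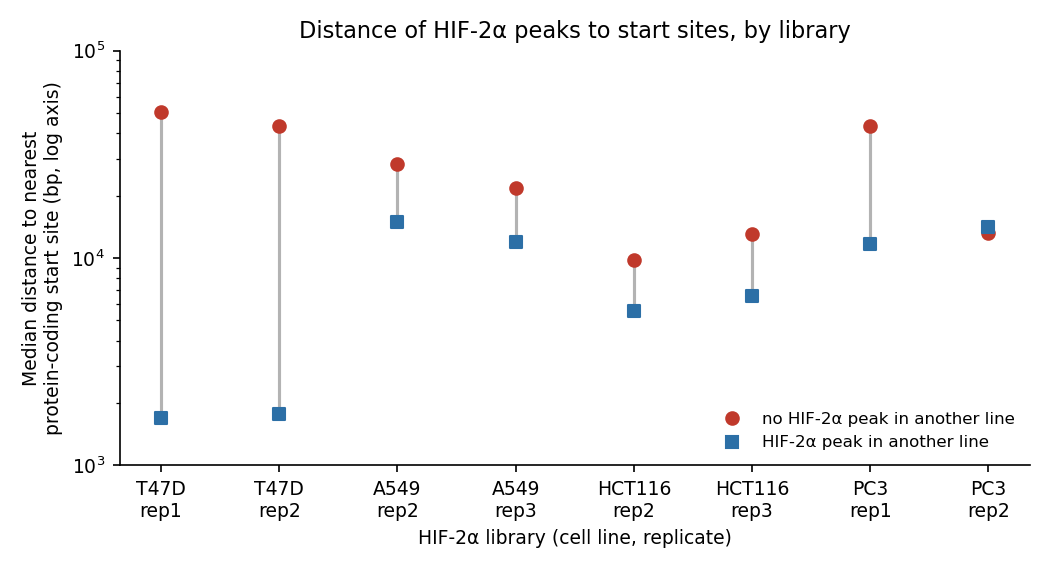
Median distance from peak centre to the closest protein-coding start (bp, log axis) for each of the 8 HIF-2α libraries, with private peaks as circles, shared peaks as squares and a line joining the 2 medians of a library. Both T47D libraries show private medians of 50433 and 43442 bp over shared medians of 1694 and 1767 bp, while the points lie closer in the other lines and cross in PC3 replicate 2.

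The contrast was smaller away from promoters. With peaks within 1000 bp of a start left out of every library, which was tried only after the values were known, the T47D gap still exceeded that of the other lines, by 0.423 (exact permutation p = 0.0357, adjusted p = 0.0586). Among T47D sites beyond 1000 bp, the median distance was 42984 bp at 87 private sites and 12991 bp at 53 shared sites. The 5 private sites within 1000 bp were near PIK3R1, ST6GAL1, TRPS1, S100A4 and RAB30, at 170, 313, 75, 335 and 62 bp. PIK3R1 encodes a regulatory subunit of phosphoinositide 3-kinase, ST6GAL1 a sialyltransferase, TRPS1 a GATA-type transcriptional repressor, S100A4 a calcium-binding protein and RAB30 a small GTPase.

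Private peaks had lower scores. The peak caller's score was used only as a rank within its own list, and the percentile averaged over both T47D libraries had a median of 69.6 at private sites (quartiles 54.0 and 83.4) and 82.5 at shared sites (70.3 and 90.9). With T47D sites split by rank into 4 groups of 45, the private share was 75.6% in the lowest group, then 53.3% and 42.2%, and 33.3% in the highest. Of the 10 best-ranked sites 2 were private, of the best 20 there were 8, and of the best 50 there were 16. Over all peaks, the median percentile of private peaks was 39.4 points below that of shared peaks in T47D replicate 1 and 33.0 points below in replicate 2 (difference -36.2 ± 4.51, n = 2). The other 6 libraries had a difference of -33.4 ± 7.13. All 8 libraries had lower private ranks (mean -34.1, exact sign-flip permutation p = 0.0078, the smallest 8 libraries can give, adjusted p = 0.0234). T47D did not differ detectably from the rest (difference -2.83, exact permutation p = 0.607). The mean over all libraries ranged from -37.8 to -13.1 over 19 alternatives. These peaks include those without support from the other replicate. A peak is private by its absence from other lists, and how far a low score alone leads to absence was not tested.

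The contrast in distance was present at each level of score. Within each of these 4 rank groups the private sites were the farther ones, with medians of 33314.5 against 859 bp, 62928.5 against 3188 bp, 31693 against 880 bp and 44880 against 8334.5 bp from the lowest group to the highest. High-ranking private sites were present at both ends of the distance range, from 170 bp at PIK3R1 to 115921 bp near STMND1.

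**Figure D2:**
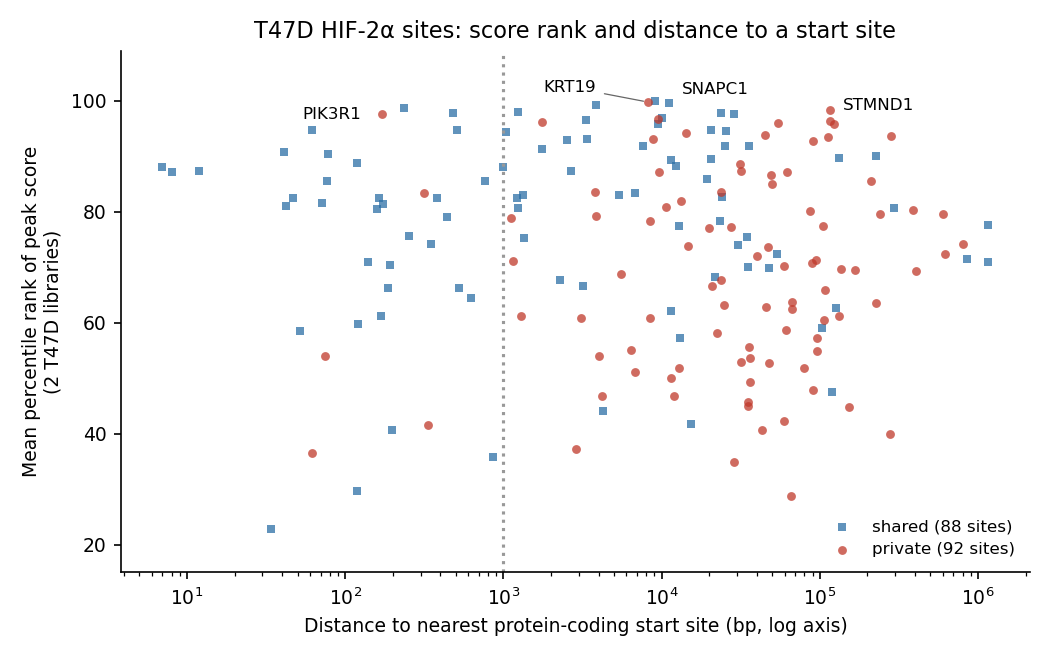
Mean percentile rank of peak score in the 2 T47D libraries against the distance of each T47D HIF-2α site from the closest protein-coding start (bp, log axis), for 92 private sites (circles) and 88 shared sites (squares). Left of the dotted line at 1000 bp lie 35 shared and 5 private sites, and private sites take up most of the lower ranks to its right.

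HIF-1α was found less often at private than at shared sites. At least 1 of the 2 T47D HIF-1α libraries had a peak at 28 of 92 private sites (30.4%, interval 22.0 to 40.5) and at 75 of 88 shared sites (85.2%, 76.3 to 91.2), and both had one at 20 and 65. In any other line HIF-1α was present at 1 private site (1.09%), the one near KRT19, and at 79 shared sites (89.8%). The HIF-2α peaks of these same lines set the classes, so that this measure is not independent of the rule. The share with T47D HIF-1α was 56.5% at sites shared with 1 other line, 88.2% with 2 and 97.9% with 3. At distal sites alone, beyond 1000 bp, it was 31.0% of private and 81.1% of shared sites.

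Over all peaks of the T47D libraries, 10.3% and 13.8% of private peaks overlapped T47D HIF-1α, against 84.5% and 77.8% of shared peaks. These were 312 and 289 private and 110 and 135 shared peaks, with or without support from the other replicate. The sites, supported by both replicates, were 92 private and 88 shared, with HIF-1α at 30.4% and 85.2%. Over all peaks the difference was -69.1 ± 7.32 percentage points (n = 2), compared with -37.4 ± 16.4 in the other 6 libraries, where each line was set against its own HIF-1α lists. All 8 libraries had the lower share at private peaks (mean -45.4 points, exact sign-flip permutation p = 0.0078, adjusted p = 0.0234). T47D minus the other lines was -31.7 points, which did not pass (exact permutation p = 0.0714, adjusted p = 0.107). HIF-1α list length varied between lines, from 382 to 4505 peaks, and was 761 and 711 in T47D.

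HIF-1α at private sites was also counted in the other lines. A HIF-1α peak in a line other than their own lay at 75 of 395 private A549 sites (18.99%) and 51 of 116 private HCT116 sites (43.97%). It lay at 4 of 40 private PC3 sites (10.0%, interval 3.96 to 23.1), which overlaps the T47D interval (1.09%, 0.192 to 5.90). HCT116, whose HIF-1α lists were the longest, was among the lines searched for T47D, A549 and PC3. In either library of their own line, HIF-1α was present at 21.8% of private A549 sites, 70.7% in HCT116 and 80% in PC3, beside 30.4% in T47D. These shares were not tested, since sites of 1 line share their libraries.

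Private sites with HIF-1α had higher ranks, with a median percentile of 82.7 for the 20 with a peak in both T47D libraries and 86.2 for the 8 with a peak in 1, against 63.0 for the 64 without any. The 20 were led by the sites near KRT19, STMND1, PIK3R1, ZNF395 and SHANK2. At the KRT19 site the HIF-1α scores were 1047 and 1119.7, above its HIF-2α scores of 915 and 934. At the PIK3R1 site the order was the opposite, with 158 and 131 for HIF-1α and 582 and 376 for HIF-2α. Scores of different lists are not on a common scale, and these are given side by side only.

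**Figure D3:**
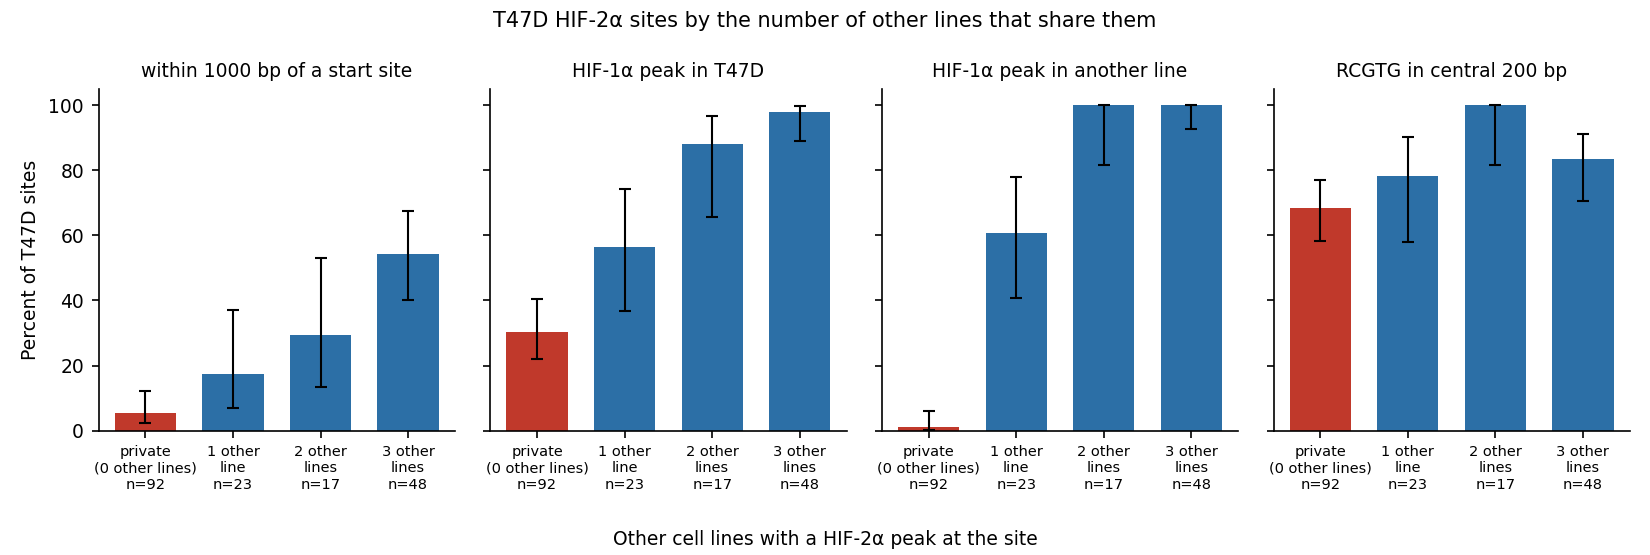
Percent of T47D HIF-2α sites that lay within 1000 bp of a start site, overlapped a HIF-1α peak in T47D, overlapped a HIF-1α peak in another line, or held RCGTG, by the number of other lines with a HIF-2α peak (92, 23, 17 and 48 sites). Bars start at 0 and error bars are Wilson 95% intervals, which cover counting error only. The first 3 measures climb from private sites to sites in 3 other lines, and the core motif is above 68% in every class. HIF-1α in another line is taken from the same lines that set the classes.

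The core sequence was common in both classes and more common at shared sites. RCGTG was present in the central 200 bp of 63 of 92 private sites (68.5%, interval 58.4 to 77.1) and 75 of 88 shared sites (85.2%, 76.3 to 91.2). In windows 5000 bp to each side of the same sites it was present in 22.8% and 25.6%, and in 42.7% of 20163 protein-coding promoters of the same kind of window. At least 2 copies were present at 22.8% of private and 43.2% of shared sites, and ACGTG alone at 58.7% and 71.6%. The motif went with HIF-1α among the private sites. It was present at 17 of 20 with HIF-1α in both T47D libraries (85.0%), at 7 of 8 with it in 1 (87.5%) and at 39 of 64 with none (60.9%).

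Taken over all T47D peaks, 37.8% and 51.9% of private peaks held the core, against 86.4% and 85.2% of shared peaks. The difference was -40.9 ± 10.8 points (n = 2) and -21.8 ± 11.3 in the other 6 libraries. It was below 0 in all 8 (mean -26.6, exact sign-flip permutation p = 0.0078, adjusted p = 0.0234), and T47D did not differ from the rest beyond the spread (difference -19.1 points, exact permutation p = 0.107, adjusted p = 0.138). The private sites, which have support from both T47D libraries, stood at 68.5%.

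Base composition moved with the class. Private windows had a median of 3 CpG dinucleotides and 50% G and C, and shared windows 14.5 and 65.75%. Much of this lay at promoters, and among distal sites the medians were 3 CpG and 50.5% against 5 CpG and 58.5%. The part of base composition in the motif shares was not tested.

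Motifs of factors known from luminal cells were counted next. GATA (the letters AGATAA or the variant TGATAA) was present at 24 of 92 private sites (26.1%, interval 18.2 to 35.9) and 9 of 88 shared sites (10.2%, 5.47 to 18.3), while the flanking windows held it in 21.7% and 21.6%. The private share was thus near its flanks and the shared share below them. A forkhead motif (TGTTTAC or TATTTAC) was present at 12 private sites (13.0%) and 5 shared sites (5.68%), with 7.07% and 3.98% in the flanks. The TFAP2 motif (GCC and GGC with 3 bases of any kind between them) had the opposite order, at 9 private (9.78%) and 22 shared sites (25%), with 3.26% and 6.25% in the flanks and 20.7% in all promoters. All motifs were searched on both strands.

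An oestrogen response element (GGTCA and TGACC with 3 bases of any kind between them) was present at 1 private site and 0 shared sites, where a count of 0 allows a share of up to 3.41% (3 counts of 88). The flanks held it in 0% of windows in both classes, and all promoters in 0.0347%. Only this full form was searched, and it is too rare for these counts to separate the classes. Grainyhead motifs (AACC followed by GGTT, TGTT or AGTT) were found at 2 private and 1 shared site. AP-1 (TGACTCA or TGAGTCA) was present at 4 private T47D sites (4.35%) and 7 shared sites (7.95%), with 4.35% and 4.55% in the flanks. In the private sites of A549, HCT116 and PC3 its share was 20.3%, 12.1% and 25%. A match of letters does not show that a factor was bound, and motif differences between classes were not tested.

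**Figure D4:**
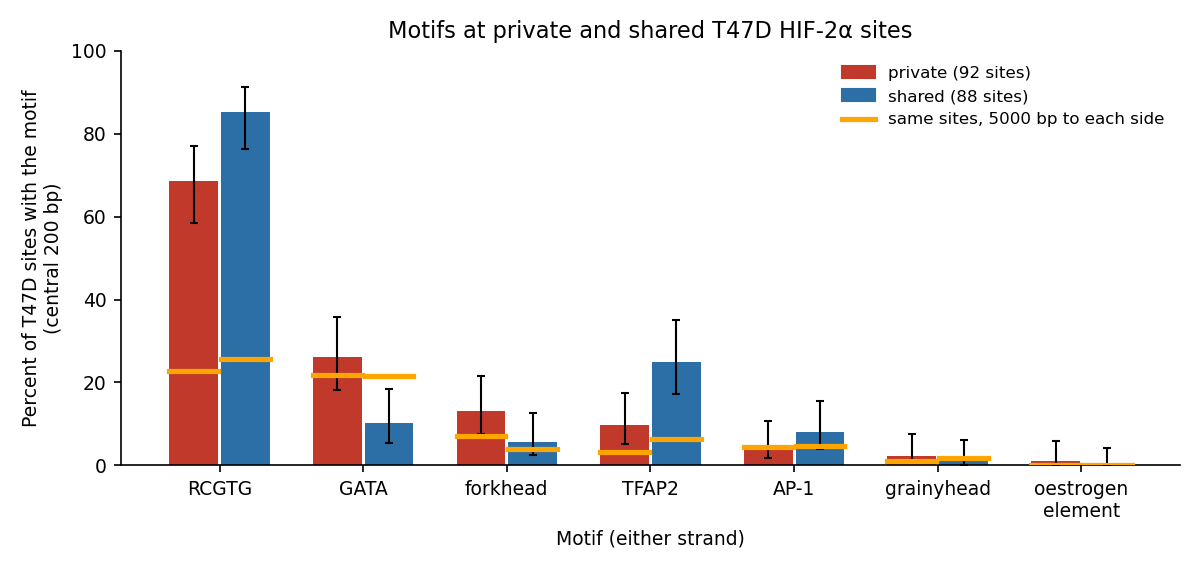
Percent of private (92) and shared (88) T47D HIF-2α sites with each motif on either strand of the central 200 bp, with Wilson 95% intervals; orange lines give the share in windows 5000 bp to each side of the same sites. RCGTG stands above its flanks in both classes, GATA does not, and the TFAP2 share of shared sites (25%) is above that of private sites (9.78%).

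Genes were assigned as the 3 protein-coding genes with the closest start sites. By this rule 255 of 19794 protein-coding genes belonged to a private site (1.29%), 246 to a shared site (1.24%) and 479 to either (2.42%). The lists were luminal identity genes, oestrogen response genes, lineage genes of the other tissues, and genes of the hypoxic response. They are described by counts only.

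Of 40 oestrogen response genes, 10 had a T47D site (25%, against 2.42% of all genes). A private site lay near 9 of them (22.5%, against 1.29% of all genes), ADCY9, CTSD, CXCL12, IL6ST, KRT19, MYBL1, MYC, RARA and STC2. A shared site lay near 4 (10.0%, against 1.24%), MYC, RARA, SIAH2 and STC2. The same 40 genes were near private sites of A549 in 8 cases (20%, against 4.9% of all genes), of HCT116 in 1 (2.5%, against 1.72%) and of PC3 in 0 (against 0.601%). IL6ST and MYC were on both the T47D and the A549 list of private sites, at different positions. With the closest gene alone the T47D private count was 6, with a score at or above the median of all HIF-2α peaks it was 5, and with peaks of either replicate 16.

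The distances behind the oestrogen response genes were long. KRT19, a keratin of simple epithelia, was 8157 bp from its private site and RARA, the retinoic acid receptor alpha, 4172 bp. CTSD, the lysosomal protease cathepsin D, was 32041 bp away, IL6ST, the shared signal-transducing receptor of the interleukin-6 family, 34968 bp, and ADCY9, an adenylyl cyclase, 36012 bp. The remainder were farther, at 90380 bp for MYBL1, 211273 bp for the chemokine CXCL12, 404301 bp for MYC and 207470 to 262787 bp for STC2. The score rank of these sites spread over the whole list, with a mean percentile of 99.8 at KRT19, 87.4 at CTSD, 85.6 at CXCL12, 69.3 at MYC, 53.6 at ADCY9, 46.7 at RARA, 45.7 at IL6ST and 34.9 at MYBL1. Apart from KRT19, 0 of them had a T47D HIF-1α peak.

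RARA, MYC and STC2 each had a private and a shared site. The shared RARA site lay 8921 bp from the private one in the same gene, had scores of 203 and 343 against 87.8 and 54.7, and had HIF-2α peaks in A549 and PC3. The shared MYC site lay 133171 bp from the MYC start, scored 194 and 237 against 108 and 82.1 at the private one, and had A549 as the only other line. The shared STC2 site lay 1233 bp from the start, scored 476 and 439.8, and had a peak in each of the 6 other libraries. STC2 encodes the secreted glycoprotein stanniocalcin 2. In all 3 genes the shared site was the higher scoring one in both T47D libraries and had HIF-1α in both.

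Of 40 luminal identity genes, 4 had a T47D site (10.0%, against 2.42% of all genes). KRT19 and TFAP2C had a private site and KRT8 and KRT18 a shared one. KRT8 and KRT18 encode the paired keratins of simple epithelia and have neighbouring starts, so that both counts rest on 1 site at chr12:53368369-53369554. That site was 25296 bp from the KRT8 start, scored 220 and 265 in T47D, and was shared through weak A549 peaks of 62.5 and 73.4. TFAP2C, a transcription factor of luminal cells, was 105042 bp from its site, which scored 145 and 104. ESR1, PGR, GATA3, FOXA1 and the other genes of the list were not among the 3 closest genes of any T47D site. Sites of A549 had 6 of these 40 genes, of HCT116 3 and of PC3 1, so that the T47D count was not the highest. A549 also had more sites, 772 against 180. Private sites had 2 of the 40 genes in T47D (5%, against 1.29% of all genes) and 3 in A549 (7.5%, against 4.9%). In HCT116 the private count was 1 (2.5%, against 1.72%) and in PC3 0 (against 0.601%). The private T47D count was 2 as given, 4 with lists of equal length, 12 with peaks of either replicate and 1 with genes within 100 kb.

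The site near KRT19 was the best-ranked private site and the only private site counted in both lists. It spanned chr17:39691786-39693647 (1862 bp) outside genes, 8157 bp from the KRT19 start and 13936 bp from that of KRT15, in the type I keratin cluster. Its scores were 915 in replicate 1, the highest of that list on the chromosomes analysed, and 934 in replicate 2. In PC3 the HIF-1α lists had peaks here with scores of 88.4 and 119, and no other list of the other lines had one. When sites were set against peaks of either isoform, which was tried only after the values were known, it was the 1 site that left the private class. The nearest HIF-2α peak of another line was 10264 bp away.

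Among genes of other lineages, a T47D site was present for 1 of 24 basal genes (4.17%), 1 of 16 lung genes (6.25%), 1 of 16 intestinal genes (6.25%) and 0 of 14 prostate genes, beside 2.42% of all protein-coding genes. The basal gene ITGA6 was among the 3 closest of the PDK1 promoter site, SCGB1A1 of a site 81441 bp away and VIL1 of the CTDSP1 promoter site. Private sites had 0 genes of these 4 lists, beside 1.29% of all genes. The AP-1 and ATF list had 2 of 12, both private (16.7%, against 1.29% of all genes), FOS at 23896 bp and MAFF at 5072 bp. Private sites of A549 had 4 of these 12 genes (33.3%, against 4.9% of all genes). Those of HCT116 and PC3 had 1 each (8.33%, against 1.72% and 0.601%). FOS encodes an AP-1 subunit and MAFF a small MAF protein. The FOS site had T47D HIF-1α peaks of 267 and 302, and HIF-2α scores of 115 and 213.

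Glycolysis genes were at shared sites throughout. Of 22 genes of glycolysis and glucose uptake, 13 had a T47D HIF-2α site (59.1%, against 2.42% of all genes). All 13 had a shared site, against 1.24% of all genes. A private site lay near 0 of the 22, which is near the low share of all genes, 1.29%. The 13 genes were ALDOA, ENO1, GPI, LDHA, PDK1, PFKFB3, PFKFB4, PFKP, PGAM1, PGK1, PKM, SLC16A3 and SLC2A3. For 11 of the 13 the start lay within 1000 bp of a site, for PFKFB3 1233 bp and for SLC2A3, a glucose transporter, 34592 bp. The site at GPI was centred 12 bp from the start and the site at LDHA 78 bp. GPI encodes glucose-6-phosphate isomerase and LDHA a subunit of lactate dehydrogenase. Every one of these sites had HIF-1α in both T47D libraries. With peaks of either replicate, or without HCT116, the private count was 1 instead of 0.

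Of 15 oxygen sensing genes, 7 had a T47D site (46.7%, against 2.42% of all genes). They were BHLHE40, CITED2, EGLN1, EGLN3, HIF1A, KDM3A and KDM4B, all with a shared site (against 1.24% of all genes). EGLN1 and EGLN3 encode the prolyl hydroxylases that mark HIF-α for degradation, and their sites were 168 and 12260 bp from the start. BHLHE40, a transcriptional repressor, had in addition a private site 275441 bp away, which scored 85.9 and 79.2. Of the study's list of genes bound and induced in all its lines, 28 of 47 annotated genes had a T47D HIF-2α site (59.6%). All 28 had a shared site, against 1.24% of all genes. BHLHE40, STC2 and ZNF395 had a private one as well (6.38%, against 1.29%). That list was drawn by the study partly from these libraries and is not independent evidence of sharing.

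EDN1, which encodes the vasoconstrictor endothelin 1, was the only 1 of 16 angiogenic and vasoactive genes with a T47D site (6.25%, beside 2.42% of all genes). Sites of A549 had 6 of these genes, of HCT116 3 and of PC3 2. The EDN1 start had 2 T47D sites near it. The shared one lay 23777 bp from the start, with scores of 381 and 501 and peaks in both A549 libraries. The private one lay 45873 bp away and scored 68.7 and 93.6. The sites lay 21222 bp apart.

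**Figure D5:**
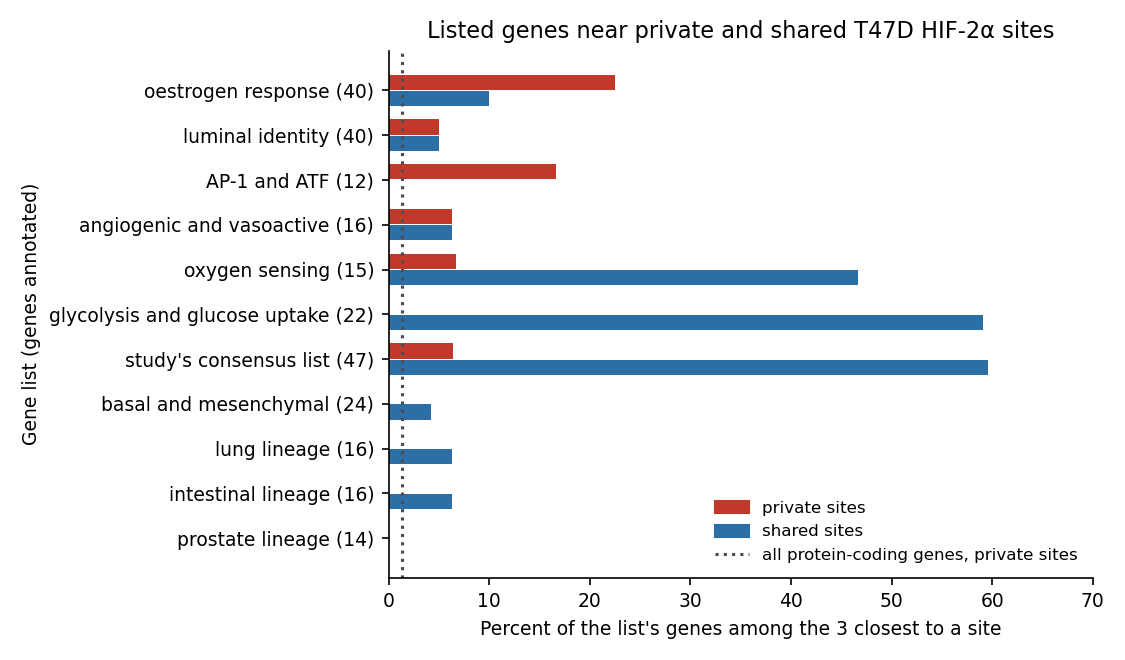
Percent of each gene list (number of annotated genes in brackets) among the 3 closest protein-coding genes of private and of shared T47D HIF-2α sites; the dotted line is the share of all protein-coding genes at private sites, 1.29%. Glycolysis and consensus genes stand at 59.1% and 59.6% for shared sites, and oestrogen response genes at 22.5% for private against 10.0% for shared sites.

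The 10 best-ranked private sites were spread over 10 chromosomes. After KRT19 came a site 115921 bp from STMND1 with scores of 463 and 504, and a site 170 bp from the PIK3R1 start with 582 and 376. The ZNF395 site, in an intron of that zinc finger gene, scored 326 and 453. PARD3, which encodes a cell polarity protein, lay 116155 bp from a site that scored 313 and 487. The site near DHX35, an RNA helicase gene, was uneven between replicates, with 258 and 531. SHANK2, a scaffold protein gene, held an intronic site with 368 and 329. The sites near ZFP36L1, whose protein promotes decay of AU-rich mRNAs, and BCHE, the gene of butyrylcholinesterase, scored 290 and 413 and 318 and 275. The tenth, in an intron of CTPS2 and 44880 bp from S100G, scored 315 and 268. Of these 10 sites 9 overlapped T47D HIF-1α in at least 1 library and 9 held RCGTG in the central 200 bp.

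Strong shared sites were of different kinds. Of the 10 best ranked, 5 had peaks in all 3 other lines, near SNAPC1, ALDOA, STC2, BHLHE40 and MRPL45. The SNAPC1 site, which has HIF1A among its 3 closest genes, scored 818 and 993 in T47D. The other 5 were shared with 1 line each. The highest-ranked T47D site of all, 9056 bp from the olfactory receptor gene OR1I1, scored 898 and 1108 and was shared with PC3, whose replicates scored 320 and 1232 there. The site in WT1, a zinc finger transcription factor gene, scored 722 and 887, and its other-line support was a single PC3 replicate 2 peak of 62.1. The sites near EDN1 and RIOK1 were shared with A549, and the site near FPR1 with PC3. Without PC3 the OR1I1, WT1 and FPR1 sites counted as private, and without A549 those near EDN1 and RIOK1.

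Sites were clustered in places. Within 100 kb of each other lay 16 pairs of T47D sites, of which 6 were both private, 5 both shared and 5 mixed. At BOD1 and STC2 on chromosome 5, 3 private sites lay 24512 to 54372 bp apart, the strongest with scores of 198 and 163. A pair of private sites lay 25538 bp apart near STMND1 and another 4603 bp apart in ZNF350. Mixed pairs lay near EDN1, TMEM63B, ZNF395, UACA and RARA. Near TMEM63B the gap was 2299 bp, the shared site had peaks of HIF-1α in all 6 other-line libraries, and the private one had HIF-1α in T47D alone, with scores of 181 and 281.

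The split into private and shared sites differed between chromosomes. Chromosome 5 held 11 private and 3 shared sites, which was 12.0% of private and 3.41% of shared T47D sites, beside 5.81% of the private sites of the other lines. Chromosomes 9 and 20 each held 6 private sites and 1 shared site, and each had 6.52% of private T47D sites. Of the private sites of the other lines, 5.99% were on chromosome 9 and 3.63% on chromosome 20. There were 0 T47D sites on chromosomes 13, 18 and Y, which had 1.27%, 2.72% and 0% of the other lines' private sites. Copy number differs between cancer lines, was not measured in these lists, and its part in the counts was not tested.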

How the data were processed

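ChIP-seq peak lists of 16 libraries were analysed, grouped by the cell line and antibody that the labels give. Per the submitters' processing notes and methods, the authors trimmed reads with Trim Galore 0.3.3, aligned them to GRCh37 with BWA 0.7.5a-r405, filtered them with SAMtools 0.1.19, bedtools 2.17.0 and Picard 2.0.1, and called peaks per library with MACS, whose version is not given in the sources used here. The methods name T-PIC as a second caller and a background filter on peaks found by both. The deposited lists carry MACS peak names, and whether that filter was applied to them is not stated. Each deposited peak carries a score from the authors' peak caller, whose scale is not stated. The score was used only for ranks within a list and as a threshold in 1 alternative. Read totals are not in the lists, so depth is unknown, and list length limits the precision of shares, whose Wilson 95% intervals cover counting error only.

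Of 7015 HIF-2α peaks, 11 lay outside chromosomes 1 to 22, X and Y and were left out. Start sites came from GENCODE 44 (lifted to GRCh37), and log10 distances were taken after adding 1 bp. Computation used pysam 0.24.0, scipy 1.17.1 and numpy 2.4.6 under Python 3.11.15, and figures matplotlib 3.10.9.

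Each library was set against all HIF-2α libraries of the other 3 lines. T47D and the other lines were compared by two-sided exact permutation over the 28 choices of 2 of 8 libraries, and private with shared peaks by exact sign flips over 8 libraries, with Benjamini-Hochberg adjustment over 9 tests and a threshold of 0.05. Replicates of a line share sites and are not fully independent units. Libraries of different lines are linked as well, since a peak is shared through a peak of another line. The sign-flip p values therefore rest on values that are not independent. The functions were tested on simulated data.

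Named sites were the 10 best-ranked private and the 10 best-ranked shared sites, every site with a luminal or oestrogen response gene, and the leading private sites with HIF-1α peaks. The private sites nearest to a peak of another line and the shared sites with the smallest overlaps were named as well. Genes of the other lists, the private sites within 1000 bp of a start and the neighbouring sites were named after their values were seen. The sites, gene lists and tests were all chosen with earlier results of these data known. HIF-1β libraries and expression data were not used here.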

Additional observations from a re-analysis of the deposited data

Results flagged for a closer look

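The highest score in T47D HIF-2α replicate 1 belonged to a peak outside the chromosomes analysed, on the mitochondrial genome, with a score of 1306.79 (rank 1 of 423). It was the only mitochondrial peak in the 16 lists, T47D replicate 2 included, and it entered no site. It was marked because it lies in data that the comparisons leave out.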

How the results depend on the processing

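The larger distance gap of T47D kept its direction, and stayed short of the adjusted threshold, under all 22 alternatives (0.423 to 1.26 on the log10 scale). Over all lines, the distance gap no longer passed with peaks scoring at or above 69.595 (0.354), with the best 272 peaks of each library (0.379), with peaks in both replicates only (0.411) and with distal peaks only (0.186), which was tried after the values were known. It ranged from 0.424 to 0.737 when single libraries were left out, and 6 of these 8 omissions lost the call (A549 replicate 3, both HCT116 libraries, PC3 replicate 1 and both T47D libraries). With cell lines as units the smallest possible exact p is 0.125, so that the gaps in distance (0.561), score rank (-34.1), RCGTG (-26.6) and HIF-1α overlap (-45.4) could not pass. Leaving out a whole line reduces the sign flips, and the calls were lost without A549 (0.737, -37.8, -30.7 and -52.7), HCT116 (0.561, -33.4, -26.0 and -46.3) and PC3 (0.809, -33.9, -26.9 and -50.1). The cause of the other losses was not tested.

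The score-rank difference between T47D and the other lines, which did not pass, turned to 7.23 at the score threshold, 0.701 with peaks in both replicates and 2.16 without A549, and ranged from -6.19 to 0.394 with single libraries left out. The private share turned to -0.431 points against sites in both replicates of the other lines and to -1.52 without PC3. The percentage of private T47D sites was 76.4 with peaks of either replicate (507 of 664 sites) and between 44.5 and 56.7 otherwise. Of 44 named sites, 1 private and 12 shared ones changed class under some alternative.

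Same-numbered replicates of T47D and PC3 did not deviate together (correlation 0.0321 over 1959 sites; A549 and HCT116 -0.0284). Exchanging labels only within a replicate number (replicate block) gave a distance difference of 1.07, averaged over number 1 (T47D and PC3) and number 2 (all 4 lines). The exact permutation p of 0.125 (adjusted p = 0.208) was the smallest that this exchange can give. No difference of T47D from the other lines could pass in it, so that the unchanged calls are no check. Lists hold no depth, and small differences between libraries are not resolved with 2 per line.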
